A study of Mus musculus with 6 samples.

Results

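The genes Drd2, Adora2a, Gpr6, Penk, Gpr52 and Sp9 are markers of the indirect pathway of the striatum, and all 6 were found by symbol among the 21878 genes of the count table. They were selected on their standing as markers of these neurons, with the fold changes of the comparison described here already known, so their fold changes are given as a description, with no p-value, and their calls in the fit over all genes are only counted beside the share of all genes called. The comparison set the prefrontal cortex of 3 control mice against that of 3 Gls1_CamkIIaCre mice by bulk RNA sequencing of all cells of the tissue. Control mice carried CamKIIαCre and intact Gls1 alleles (Gls1+/+). Gls1_CamkIIaCre mice, their littermates, carried CamKIIαCre and a single floxed Gls1 allele (Gls1+/flox). The Cre thus ran in both groups, under a promoter active in forebrain excitatory neurons, and recombination was mosaic. Mice homozygous for the floxed allele in these cells were not viable, per the series description, and no source used here states the age of the mice. Sequencing depth was even, from 17987807 to 19330961 counts per library.

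The striatum sends its output through projection neurons of the direct and indirect pathways, which together make up most of its cells. Indirect-pathway neurons project to the external pallidum, carry D2 dopamine receptors and the adenosine receptor encoded by Adora2a and release enkephalin, whereas direct-pathway neurons carry D1 receptors and release substance P and dynorphin. In indirect-pathway neurons the D2 receptor couples to inhibitory G proteins and the Adora2a receptor to the stimulatory protein Golf, so that the receptors act on cAMP in opposite directions. Cortical tissue holds few such cells, although Penk and Drd2 are also made by some cortical neurons and Sp9 by neurons of the interneuron lineages of the ventral forebrain.

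In the controls 4 of the 6 markers, Drd2, Adora2a, Gpr6 and Penk, stood far above their level in the Gls1_CamkIIaCre samples. Gpr52 and Sp9 did not separate the groups in counts scaled to library size. The promoters of 3 markers are held by the RefSeq promoter table of build GRCm38.p6, as windows of 300 bases from 250 before to 50 after a transcription start. They are shown because Drd2 and Gpr6 were lower in the Gls1_CamkIIaCre samples and Sp9 was not. Each is written 5′ to 3′ on the strand of the gene, and capitals mark a GC box (GGGCGG), a cAMP response element (TGACGTCA) or a CCAAT box (CCAAT) on either strand. The windows are chr9:49340153-49340452 on the plus strand for Drd2, chr10:41072241-41072540 on the minus strand for Gpr6 and chr2:73271676-73271975 on the plus strand for Sp9.
Drd2: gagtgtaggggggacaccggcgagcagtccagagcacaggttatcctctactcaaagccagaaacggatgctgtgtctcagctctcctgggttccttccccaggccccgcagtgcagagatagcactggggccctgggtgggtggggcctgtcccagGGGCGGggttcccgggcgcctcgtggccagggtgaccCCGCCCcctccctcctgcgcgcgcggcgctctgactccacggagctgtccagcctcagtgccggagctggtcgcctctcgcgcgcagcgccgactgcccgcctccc
Gpr6: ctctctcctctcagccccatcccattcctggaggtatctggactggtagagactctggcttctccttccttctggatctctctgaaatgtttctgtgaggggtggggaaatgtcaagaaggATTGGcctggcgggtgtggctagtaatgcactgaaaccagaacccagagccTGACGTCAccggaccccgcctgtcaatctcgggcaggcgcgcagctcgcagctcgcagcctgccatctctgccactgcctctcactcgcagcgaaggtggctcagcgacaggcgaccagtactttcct
Sp9: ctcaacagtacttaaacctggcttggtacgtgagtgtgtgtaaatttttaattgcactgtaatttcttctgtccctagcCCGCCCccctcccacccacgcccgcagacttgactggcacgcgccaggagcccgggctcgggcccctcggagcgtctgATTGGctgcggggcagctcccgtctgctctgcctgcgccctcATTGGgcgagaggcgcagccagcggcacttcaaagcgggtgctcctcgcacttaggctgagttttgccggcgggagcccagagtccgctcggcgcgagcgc

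The Drd2 window held 2 GC boxes, whose first bases lie 93 and 56 bases before the start, and its GC content was 70.3%. The Gpr6 window held a full cAMP response element 78 bases before the start and a CCAAT box, and no GC box. The Sp9 window held a GC box and 2 CCAAT boxes. Neither Drd2 nor Sp9 had the full cAMP response element in its window, and no window held the letters TATAAA. Over 32851 promoter windows of the table, 1.79% held TGACGTCA, 35.7% GGGCGG, 37.4% CCAAT and 13.6% TATAAA on either strand, and the median GC content was 52.7%. The full cAMP response element of Gpr6 is therefore the least common of these matches. A match describes the letters of a window and not a site in use, and the pair of windows from markers that were lower had none of these motifs in common.

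Drd2, the D2 dopamine receptor (chromosome 9, 49340360 to 49408177, GRCm38.p6, plus strand), was read at 13.9, 27.0 and 15.9 CPM in controls 1, 2 and 3 and at 2.36, 1.89 and 2.48 CPM in Gls1_CamkIIaCre 1, 2 and 3. CPM denotes counts scaled to a common library size after TMM normalisation. The groups did not overlap, and the lowest control lay above every Gls1_CamkIIaCre library. Group means were 18.9 ± 7.08 and 2.24 ± 0.308 CPM (SD, n = 3 per group), a log2 fold change of -3.07 ± 0.37 (SE). The Gls1_CamkIIaCre mean was 11.8% of the control mean. In bulk tissue, fewer cells of a type, less RNA per cell and a different share of a brain region in the sample cannot be told apart. This holds for every gene below.

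Adora2a, an adenosine receptor that raises cAMP (chromosome 10, 75316877 to 75334792, plus strand), was at 21.1, 41.1 and 27.6 CPM in the controls and at 2.84, 2.73 and 4.17 CPM in the Gls1_CamkIIaCre libraries. Again the groups lay apart. The means of 29.9 ± 10.2 and 3.24 ± 0.799 CPM (SD, n = 3 per group) gave a log2 fold change of -3.20 ± 0.39 (SE). Adora2a thus kept the smallest share of its control level among the 6 markers, 10.8%, next to the 11.8% of Drd2.

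Gpr6, a constitutively active orphan receptor that raises cAMP (chromosome 10, 41069977 to 41072290, minus strand), had 6.07, 10.7 and 8.50 CPM in the controls. In Gls1_CamkIIaCre libraries 1, 2 and 3 it had 0.696, 1.89 and 1.53 CPM, from 13, 34 and 29 counts. The groups did not overlap, and the spread of the Gls1_CamkIIaCre libraries, a coefficient of variation of 44.7%, was the widest of any marker in that group and rests on these low counts. The log2 fold change was -2.62 ± 0.30 (SE), with 16.3% of the control mean left.

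Penk, which encodes the precursor of the enkephalins (chromosome 4, 4133536 to 4138815, minus strand), was the most abundant marker by count. Controls held 136, 228 and 142 CPM and Gls1_CamkIIaCre libraries 56.1, 61.5 and 46.5 CPM, with no overlap. Its log2 fold change of -1.63 ± 0.28 (SE) was the smallest of the 4, and 32.4% of the control mean was left (54.7 ± 7.59 against 169 ± 51.4 CPM, SD, n = 3 per group). In CPM its group means nevertheless differed most, by -114 CPM, against -26.7 CPM for Adora2a, -16.7 for Drd2 and -7.07 for Gpr6.

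Gpr52, an orphan receptor that signals through the stimulatory G protein pathway (chromosome 1, 160574717 to 160579704), had 2.45, 2.99 and 3.66 CPM in the controls and 2.73, 2.12 and 1.74 CPM in the Gls1_CamkIIaCre libraries. Gls1_CamkIIaCre 1 lay above control 1, so the groups overlapped in CPM. The log2 fold change was -0.46 with a 95% interval from -0.95 to 0.03. These values rest on 33 to 68 counts per library. In the authors' deposited FPKM the groups did not overlap, with controls at 0.881, 1.26 and 1.25 FPKM and Gls1_CamkIIaCre libraries at 0.770, 0.627 and 0.517 FPKM. The counts and the FPKM of this gene were not proportional, since its FPKM per CPM ran from 0.282 to 0.423 over the libraries, against 0.306 to 0.324 for Drd2. This ratio was higher in every control than in every Gls1_CamkIIaCre library, so the separation in FPKM does not rest on the counts alone.

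Sp9, a zinc finger transcription factor needed for the development of indirect-pathway neurons (chromosome 2, 73271926 to 73275771, plus strand), had 13.8, 12.3 and 11.3 CPM in the controls and 18.5, 15.2 and 10.6 CPM in the Gls1_CamkIIaCre libraries. Gls1_CamkIIaCre 3 was the lowest of all 6 libraries and Gls1_CamkIIaCre 1 the highest, so the groups overlapped. Its log2 fold change was 0.24, with a 95% interval from -0.18 to 0.67. Sp9 was the only one of the 6 markers with a higher mean in the Gls1_CamkIIaCre samples.

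**Figure D1:**
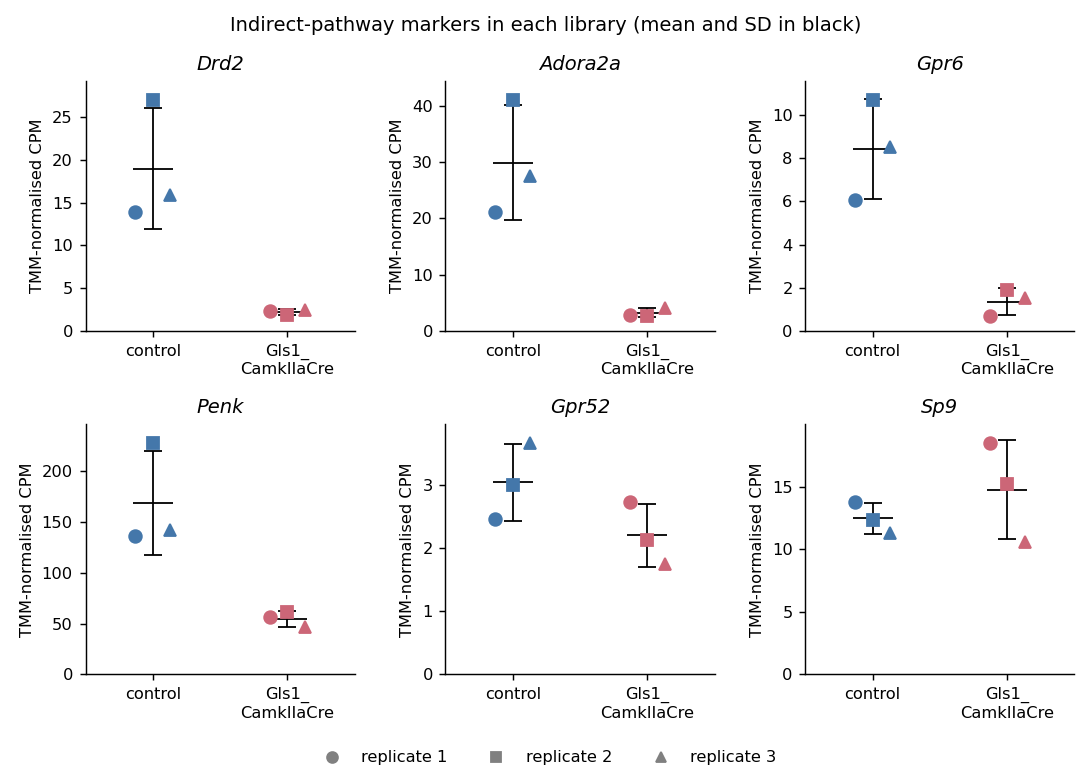
TMM-normalised CPM of the 6 markers in each library, with control on the left and Gls1_CamkIIaCre on the right of each panel; points are libraries, black bars the mean and SD of 3. Drd2, Adora2a, Gpr6 and Penk show no overlap between the groups, Gpr52 and Sp9 do, and control 2 is the highest library of the first 4.

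By the edgeR quasi-likelihood test across 14440 genes, 4 of the 6 markers passed as lower at an adjusted p under 0.05 and none as higher. Over all genes tested 8.24% passed, 4.29% as lower and 3.95% as higher. In 4 of the 6 markers every control lay above every Gls1_CamkIIaCre library, as in 13.6% of all genes. The median log2 fold change of the markers was -2.12, against -0.002 over all genes. Because the markers were chosen with this comparison known, nothing is read from these counts. Drd2, Adora2a, Gpr6 and Penk were the 4, and all were lower whichever library was left out, with log2 fold changes from -3.25 to -2.72 for Drd2, -3.42 to -2.90 for Adora2a, -2.91 to -2.30 for Gpr6 and -1.76 to -1.34 for Penk.

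The calls were less even than the fold changes. As the markers were chosen with the comparison known, these calls too are only described. Gpr6 passed under each alternative that was run. Limma voom passed Gpr6 alone, and so did edgeR without Gls1_CamkIIaCre 1 or without Gls1_CamkIIaCre 2. Without control 3 Drd2 and Gpr6 passed, without control 1 Penk did not, and without Gls1_CamkIIaCre 3 Gpr6 passed as lower and Sp9 as higher. Without control 2, the library that stood apart, the same 4 markers passed. Over all genes 1190 passed by edgeR with all 6 libraries, 1097 by limma voom and 415 to 1098 by edgeR with a library left out.

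Levels of different genes were compared per length, in the authors' FPKM. In the controls Penk was highest at 79.4 ± 24.7 FPKM (SD, n = 3), followed by Adora2a at 9.50 ± 3.39, Drd2 at 6.11 ± 2.32, Sp9 at 5.38 ± 0.580, Gpr6 at 5.21 ± 1.51 and Gpr52 at 1.13 ± 0.218 FPKM. Neighbours from Adora2a to Gpr6 in this order have overlapping SD ranges. Within each control, however, Adora2a lay above Drd2, at 6.65, 13.3 and 8.60 against 4.43, 8.76 and 5.14 FPKM. In the Gls1_CamkIIaCre libraries Penk stayed highest at 24.4 ± 3.25 FPKM and Sp9 came next at 5.91 ± 1.74. Adora2a, Gpr6, Drd2 and Gpr52 followed at 0.956 ± 0.276, 0.779 ± 0.350, 0.694 ± 0.0917 and 0.638 ± 0.127 FPKM, with overlapping SD ranges. Within each of these libraries Adora2a again lay above Drd2, at 0.825, 0.769 and 1.27 against 0.721, 0.592 and 0.769 FPKM. Sp9, level with Drd2 in the controls, therefore stood well above it in the Gls1_CamkIIaCre samples.

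Overlap with other genes bears on 3 of the markers. Gpr52 lies within the span of Rabgap1l, a protein-coding gene whose exons in GENCODE M21 cover 0 bases of Gpr52, and Rabgap1l had 234 ± 10.8 against 246 ± 8.44 CPM (SD, n = 3 per group, edgeR adjusted p = 0.301). The transcript A830012C17Rik, on the opposite strand, has 390 exonic bases within the 5′ part of the Penk span, and a RefSeq long noncoding RNA model, Gm46111, overlaps the 3′ end of Drd2. No source used here says whether the counting used strand, so reads of these pairs cannot be told apart, and their part in the values was not tested.

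The controls were not alike in these genes. Drd2, Adora2a, Gpr6 and Penk were each highest in control 2, then control 3, then control 1, and control 2 stood 1.81, 1.69, 1.47 and 1.64 times above the mean of the other controls. For Gpr52 and Sp9 this ratio was 0.978 and 0.978. Control 2 was the highest control for 14 of 15 genes shared by both kinds of striatal projection neuron and for 7 of 9 direct-pathway markers, against 32.2% of all genes tested. The 4 lower markers thus moved together among the controls, and this spread within the group enters the SE of their fold changes. In the Gls1_CamkIIaCre libraries they did not share an order: Drd2 and Adora2a were highest in library 3, Gpr6 and Penk in library 2.

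**Figure D2:**
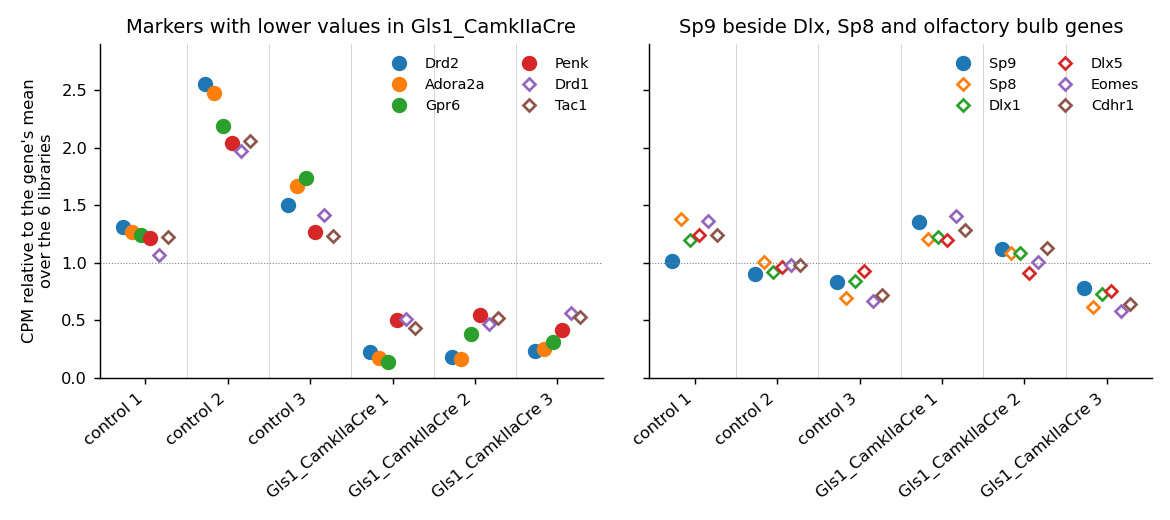
CPM of each gene divided by its mean over the 6 libraries, with indirect-pathway markers as filled circles and other genes as open diamonds; libraries are along the horizontal axis. On the left Drd2, Adora2a, Gpr6, Penk, Drd1 and Tac1 peak in control 2, and on the right Sp9, Sp8, Dlx1, Dlx5, Eomes and Cdhr1 are lowest in library 3 of each group.

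Ratios between markers within a library do not depend on library size. Drd2 and Adora2a stayed in similar proportion, with 0.659, 0.658 and 0.578 Drd2 counts per Adora2a count in the controls against 0.830, 0.694 and 0.595 in the Gls1_CamkIIaCre libraries, ranges that overlap. Penk did not keep step with them. It had 6.46, 5.55 and 5.14 counts per Adora2a count in the controls against 19.8, 22.5 and 11.2 in the Gls1_CamkIIaCre libraries, without overlap. Against Tac1, which encodes the substance P precursor of direct-pathway neurons, Penk had 3.86, 3.84 and 3.97 counts per count in the controls against 4.44, 4.10 and 3.03 in the others. Per count of Pdyn, the dynorphin precursor, Penk had 3.81, 5.0 and 4.46 counts in the controls against 2.77, 3.12 and 2.04, without overlap. The ratio of Penk to Tac1 thus overlapped between the groups and that to Pdyn did not.

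The markers were also set beside those of the direct pathway. Per count of Drd1, the D1 dopamine receptor, there were 0.740, 0.786 and 0.730 counts of Adora2a in the controls against 0.208, 0.220 and 0.279 in the Gls1_CamkIIaCre libraries. For Drd2 per Drd1 the values were 0.487, 0.517 and 0.422 against 0.173, 0.152 and 0.166. Both ratios separated the groups in every library. In CPM, however, the group means differed by -26.7 for Adora2a, -16.7 for Drd2 and -25.8 for Drd1. Drd1 kept 34.6% of its control mean, so both ratios also depend on the Drd1 level that was left. The source of that level was not tested. The mean log2 CPM of the 6 markers relative to that of 9 direct-pathway markers lay between -0.16 and 0.02 in the controls and between -0.94 and -0.89 in the Gls1_CamkIIaCre libraries, a difference between group means of -0.87. Relative to 15 shared striatal genes the difference was -0.96. These ratios were not tested, since they use the markers' own change. The differences between lists also depend on which genes each list holds. Among the direct-pathway markers Eya1, Chrm4, Sfxn1 and Ebf1 had log2 fold changes between -0.13 and 0.10. The others had -3.20 (Isl1), -1.60 (Tac1), -1.56 (Slc35d3), -1.53 (Drd1) and -0.85 (Pdyn), beside -3.20 for Adora2a and -1.63 for Penk.

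**Figure D3:**
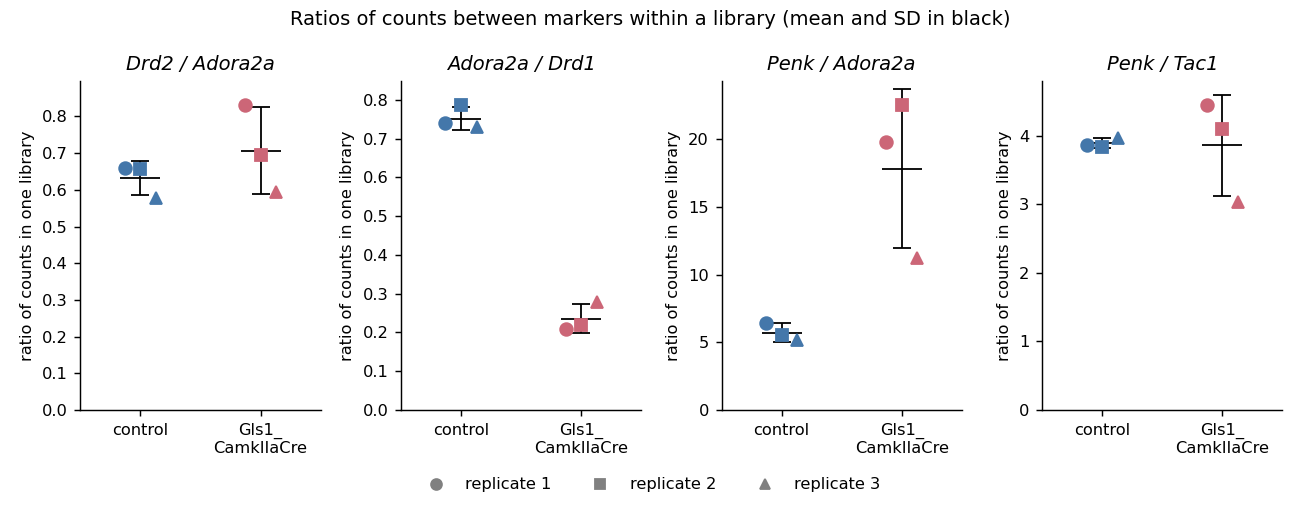
Ratio of the counts of 2 genes in the same library, one panel per pair, with points for libraries and black bars for the mean and SD of 3. Drd2 per Adora2a and Penk per Tac1 overlap between the groups, Adora2a per Drd1 is lower and Penk per Adora2a higher in every Gls1_CamkIIaCre library.

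Other striatal genes give the setting of these changes. Their lists, and those further below, were also chosen with earlier results of these data known. Of all genes tested 4.29% passed as lower and 3.95% as higher. Of 9 direct-pathway markers 4 fell and 0 rose by edgeR, with a median log2 fold change of -0.85 (-0.49 over genes with a mean of 50 counts or more, and -0.56 on log2(FPKM + 1)). These were Isl1, a transcription factor of these neurons, at -3.20 (adjusted p = 0.00101), Slc35d3 at -1.56 (0.000399), Tac1 at -1.60 (0.0488) and Pdyn at -0.85 (0.00736). Drd1 had -1.53 and did not pass by edgeR (adjusted p = 0.0511), although DESeq2 called it. With DESeq2, with upper-quartile factors, on either FPKM scale or without control 2, 5 of the 9 passed as lower. With limma voom or with no filter on low counts 3 did. Eya1, Chrm4, Sfxn1 and Ebf1 had log2 fold changes between -0.13 and 0.10. As with Gpr52 and Sp9, part of the list thus did not separate the groups in CPM. In FPKM Eya1 was higher in every Gls1_CamkIIaCre library than in every control, at 1.68 ± 0.0496 against 1.54 ± 0.0214 (SD, n = 3 per group). Tac1 did not pass with limma voom, with no filter on low counts or when any library other than control 2 was left out, and Pdyn did not without Gls1_CamkIIaCre 2, where 2 of the 9 passed.

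Of 15 genes of both kinds of projection neuron 10 fell and 0 rose by edgeR, with a median of -0.70. By smallest p they were led by Rgs2, a regulator of G protein signalling, at 63.6 ± 4.31 against 48.9 ± 1.34 CPM (SD, n = 3 in each group; -0.38 on the log2 scale), and Arpp21, a cAMP-regulated phosphoprotein, at 556 ± 50.1 against 441 ± 14.9 CPM (-0.33), and both passed under each alternative run. Gnal and Rgs9 came next. Larger differences that lost their calls under some alternatives were those of Ppp1r1b, named after its values were seen, which encodes the dopamine-regulated phosphatase inhibitor DARPP-32, at 243 ± 60.4 against 81.7 ± 9.40 CPM (SD, n = 3 per group), and of Rgs9, another such regulator, at 69.9 ± 16.3 against 26.7 ± 1.74 CPM. Their summed level was 2671 to 3502 CPM in the controls and 1933 to 1946 CPM in the Gls1_CamkIIaCre libraries, and none of the 15 was at 0 in all libraries. The count was 2 without control 3 or without Gls1_CamkIIaCre 2, and 3 without Gls1_CamkIIaCre 1 or 3. Of 7 tested striatal interneuron genes 4 fell and 0 rose by edgeR, with a median of -0.25: Chat, Slc5a7, Sst and Npy. Sst and Npy are also on the list of cortical interneuron markers below. Chat and Slc5a7, which make and take up the transmitter and precursor of cholinergic interneurons, fell by 1.82 and 1.70 on the log2 scale (edgeR adjusted p = 0.00467 and 0.00102), and Chat did not pass on log2(FPKM + 1) (limma adjusted p = 0.0529). Zic4, Nos1 and Th had log2 fold changes of 0.36, -0.01 and -0.13. Slc18a3, the vesicular acetylcholine transporter, was below the filter and overlapped between the groups. Lhx8, another gene of striatal cholinergic cells, was below the filter on low counts, at 0.829 ± 0.497 against 0.0178 ± 0.0309 CPM (SD, n = 3 per group), without overlap. Gbx2, also below it, overlapped. The part of other striatal cells in the change of the 6 markers was not tested.

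The labelled tissue was checked by markers of cortical excitatory neurons, all 18 of which were above the filter on low counts. Their summed level was 2497 to 2854 CPM in the controls and 2591 to 2795 CPM in the Gls1_CamkIIaCre libraries, so it overlapped. The summed level of the 6 markers, 194 to 322 against 67.0 to 85.3 CPM, did not. Slc17a7, at 1453 ± 153 against 1433 ± 56.8 CPM (SD, n = 3 per group), made up most of the first sum and Penk most of the second. The cortical sum does not measure how much striatal tissue a sample held, which was not tested. The median log2 fold change of the 18 genes was 0.11. Neurod2, Fezf2, Etv1, Rasgrf2 and Otof rose, by log2 fold changes between 0.24 and 0.44, and Foxp2, a transcription factor of deep cortical layers and also of striatal neurons, fell by 0.61 on the log2 scale. The 5 genes that rose were 3 without control 2, 2 without Gls1_CamkIIaCre 2 and 1, Rasgrf2, in limma on log2(FPKM + 1) or log2(FPKM + 0.1), and those that fell were 2, with Pou3f1, without Gls1_CamkIIaCre 3 or on either FPKM scale. Of 13 interneuron markers Gad2, Slc32a1, Sst and Npy fell, by log2 fold changes from -0.31 to -0.23. Gad2 and Slc32a1 are also made by striatal projection neurons. Gad1, on the same list, did not pass, at 599 ± 52.4 against 564 ± 84.8 CPM (SD, n = 3 per group, edgeR adjusted p = 0.788). The 4 that fell were 2, Gad2 and Sst, without control 1, without Gls1_CamkIIaCre 1 or on log2(FPKM + 1). In addition, 1 gene passed as higher without Gls1_CamkIIaCre 1 (Lamp5) or 3 (Reln).

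The ligand and enzyme partners of the receptors mostly did not pass. Of 9 tested dopamine genes 0 passed by edgeR (2 at an unadjusted p under 0.05, Drd1 by DESeq2, and 0 by limma voom), and the median was -0.03. With upper-quartile factors, with no filter on low counts, at a mean of 50 counts or more or on either FPKM scale, 1 gene of the list passed as lower. Th, the enzyme that starts dopamine synthesis, had 29.0, 20.5 and 16.6 CPM in the controls and 28.8, 20.7 and 11.1 CPM in the others. Drd3, the D3 receptor, and Drd4 were below the filter on low counts. Drd3 had 0.875 ± 0.793 against 0.09 ± 0.111 CPM (SD, n = 3 per group), without overlap. Drd4 had 0.459 ± 0.303 against 0.268 ± 0.0876 CPM, with overlap. Drd1 and Drd3 passed as lower without control 1, Drd1 without control 2 and Drd3 without Gls1_CamkIIaCre 1. Of 9 tested adenosine genes 0 passed, whether by edgeR, by DESeq2 or by limma voom (Entpd1 and Slc29a4 had an unadjusted p under 0.05), with a median of -0.07. Adora1, the A1 receptor, had 222 ± 11.4 against 215 ± 12.7 CPM (SD, n = 3 per group, edgeR adjusted p = 0.681).

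Of 13 opioid genes other than Penk, Pdyn and Oprk1 fell and 0 rose. Oprk1, the kappa receptor on which dynorphin acts, had 17.1 ± 4.27 against 8.07 ± 1.29 CPM (SD, n = 3 per group), a log2 fold change of -1.08 (edgeR adjusted p = 0.0132). It did not pass without control 3, as Pdyn did not without Gls1_CamkIIaCre 2. The enkephalin receptors did not pass: Oprd1, the delta receptor, had 56.3 ± 3.51 against 53.2 ± 2.28 CPM (edgeR adjusted p = 0.441), and Oprm1, the mu receptor, 2.17 ± 0.175 against 2.15 ± 0.474 CPM (0.990). The propeptide-processing genes Pcsk1 and Cpe had log2 fold changes of -0.08 and -0.03. Mme, the enkephalin-degrading peptidase neprilysin, had 20.8 ± 7.07 against 11.1 ± 2.43 CPM and did not pass (0.200).

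On the G protein and cAMP list 5 of 28 fell and 1 rose by edgeR, with a median of 0.01. Those that fell were Gnal, the Golf subunit that couples the Adora2a and D1 receptors, by 0.48 on the log2 scale, Adcy5, the main striatal adenylyl cyclase, by 0.67, and Rgs9, Prkar2b and Rgs8, and Grk3, a receptor kinase, rose by 0.18. Gnal, Adcy5 and Rgs9 are also on the shared striatal list. The inhibitory subunits Gnai1, Gnai2, Gnai3 and Gnao1, through which the D2 receptor signals, did not pass, and Gnai1 had 268 ± 2.62 against 285 ± 2.80 CPM (SD, n = 3 per group, edgeR adjusted p = 0.150). Prkar2b fell whichever library was left out. The 5 that fell were 1 without control 3, without Gls1_CamkIIaCre 1 or without Gls1_CamkIIaCre 2, and 2 without Gls1_CamkIIaCre 3. Grk3 did not pass without Gls1_CamkIIaCre 1 or on either FPKM scale, and Adcy1 rose beside it without control 3.

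**Figure D4:**
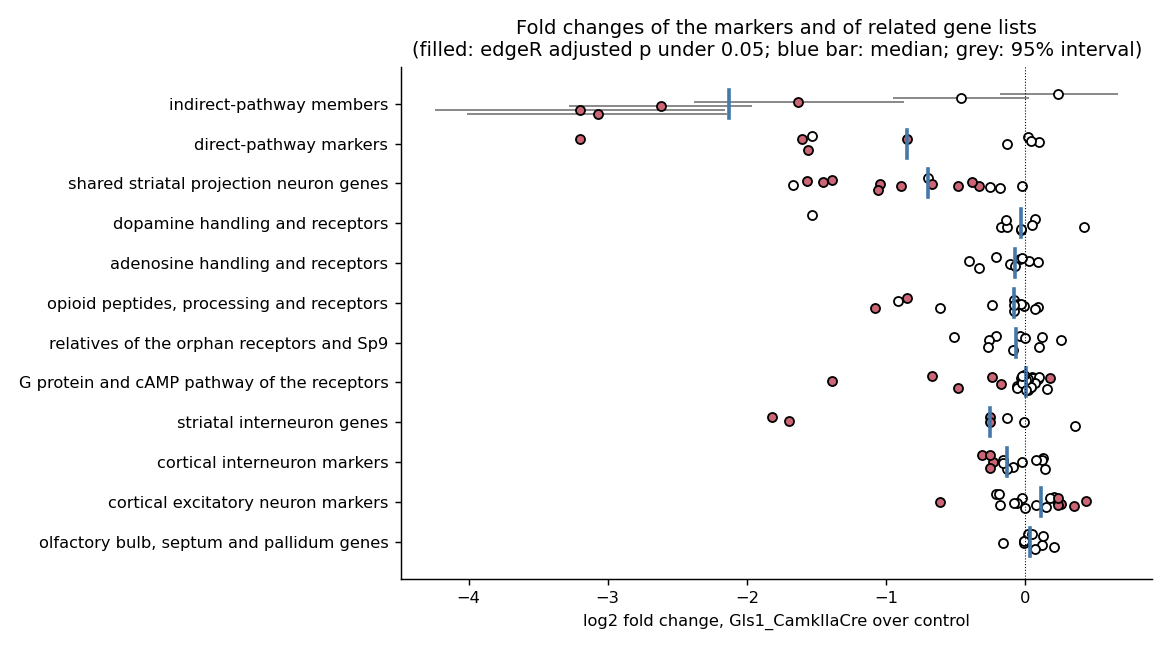
Log2 fold change (Gls1_CamkIIaCre over control) of each tested gene, one row per list, with filled points for genes of edgeR adjusted p under 0.05, blue bars for the median and grey bars for the 95% interval of the 6 markers. The markers have a median of -2.12, direct-pathway markers -0.85 and shared striatal genes -0.70, and the lists of receptor partners lie near 0.

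Relatives of Gpr6, Gpr52 and Sp9 were measured as a family check. Of 10 tested relatives 0 passed, whether by edgeR, by DESeq2 or by limma voom (Gpr21 and Sp2 had an unadjusted p under 0.05), and the median was -0.06. Gpr21, the closest relative of Gpr52, had 5.14 ± 0.894 against 3.63 ± 0.907 CPM (SD, n = 3 per group, edgeR adjusted p = 0.119). Gpr3 and Gpr12, the relatives of Gpr6, had log2 fold changes of 0.26 and -0.21.

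Sp9 had its own pattern over the libraries. In both groups the library numbered 1 was highest and the library numbered 3 lowest, and the same held for its relative Sp8, at 27.7, 20.2 and 13.9 CPM in controls 1, 2 and 3 and 24.2, 21.8 and 12.3 CPM in Gls1_CamkIIaCre 1, 2 and 3. Dlx1 and Dlx5, homeobox genes of the same interneuron lineages named here after their values were seen, shared it too, while Dlx2 did not, at 17.7, 12.8 and 13.8 CPM in the controls. Sp9 had 0.165 to 0.192 counts per Dlx1 count in the controls and 0.199 to 0.215 in the others. Of 4 genes that mark the olfactory bulb Eomes, Doc2g and Cdhr1 had this order, while Tbx21 had 4.77, 4.96 and 1.74 CPM in Gls1_CamkIIaCre 1, 2 and 3. The 4 genes summed to 160, 125 and 90.0 CPM in the controls and 170, 147 and 81.8 CPM in the Gls1_CamkIIaCre libraries. Of 10 tested genes of the olfactory bulb, septum and pallidum list 6 had this order in both groups, against 4.57% of all genes, and 0 passed between the groups by edgeR, even at an unadjusted p under 0.05, nor by DESeq2 or limma voom. Nkx2-1, a pallidal gene below the filter at 0.509 ± 0.189 against 0.0178 ± 0.0309 CPM (SD, n = 3 per group), passed as lower without control 1, without Gls1_CamkIIaCre 1 and without Gls1_CamkIIaCre 3. The part of olfactory tissue in the Sp9 values was not tested.

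The 8 genes whose log2 CPM over the 6 libraries ran closest to the mean standardised profile of the markers were Tacr3, Elovl5, Foxo1, Slc35d3, Actn2, Ssr2, Serpina9 and Necab2, with Pearson r from 0.990 to 0.995. The 6 libraries fall in 2 groups that differ in the markers, so genes that separate the groups score high. Serpina9 had the largest fold difference of the 8, 5.22 ± 1.34 against 0.669 ± 0.262 CPM (SD, n = 3 per group), and Ssr2 the smallest, 54.3 ± 1.20 against 49.4 ± 1.62 CPM. Among the markers themselves, r with the mean of the other 5 was 0.96 for Penk, 0.92 for Drd2, 0.88 for Adora2a, 0.80 for Gpr6, 0.73 for Gpr52 and -0.37 for Sp9.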

How the data were processed

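Prefrontal cortex from 3 control and 3 Gls1_CamkIIaCre mice was sequenced as bulk RNA. Per the labels' protocols, RNA was extracted with TRIzol and libraries were made with a SMARTer kit for mRNA. The authors deposited raw counts and FPKM for the same 21878 genes. The submitters' processing notes name the build GRCm38 (mm10). Aligner, counter, FPKM tool and use of strand: not given in the sources used here. Library totals lay between 17987807 and 19330961 counts. Replicates were distinct libraries (chi-square over degrees of freedom between 2.27 and 4.16).

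The test was edgeR 4.0.16 under R 4.3.3 on the counts (TMM factors, filterByExpr, robust glmQLFit and glmQLFTest, no covariate), for 14440 genes, with Benjamini-Hochberg adjustment over all of them. SE and 95% intervals come from the F statistic. The procedure was tested on simulated data. Counts and FPKM were joined to RefSeq positions by symbol. Grk2 and Grk3 stand in the table under older symbols and were matched by gene identifier.

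The members and gene lists were chosen with earlier results of these data known. Named genes are the 6 markers, the called genes of each list up to 4 of smallest p, uncalled genes for their level, and the 8 genes of highest Pearson r with the markers' mean standardised log2 CPM (prior count 2). The genes past 4 in a list, those called only in an alternative, and Dlx1, Dlx2 and Dlx5 were named after their values were seen. Alternatives were DESeq2 1.42.0, limma 3.58.1 (voom, or log2 of FPKM + 1 or FPKM + 0.1), other size factors, other filters, a replicate block and leaving out each library. The targeted gene is not reported here.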

Additional observations from a re-analysis of the deposited data

How the results depend on the processing

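Counts were low for Gpr52, at 33 to 68 per library, and for Gpr6 in the Gls1_CamkIIaCre libraries, at 13 to 34. In all, 1190 genes passed with edgeR, 674 on log2(FPKM + 1), 729 on log2(FPKM + 0.1), and 415 (without Gls1_CamkIIaCre 2) to 1098 (without control 3) when a library was left out. Leaving out control 2 gave 635, control 1 gave 763 and Gls1_CamkIIaCre 1 gave 778. The markers' median log2 fold change of -2.12 became -2.62 at a mean of 50 counts or more, where Gpr52 was not tested, -1.71 on log2(FPKM + 1), where the pseudocount shrinks low values, and -2.31 to -1.87 with a library left out. The number of markers passing as lower was 4, 1 with limma voom and 1 to 4 with a library left out, and as higher 0 to 1. Direct-pathway markers passing as lower were 2 to 5 and shared striatal genes 2 to 11 with a library left out, and the cause of the lost calls was not tested. On log2(FPKM + 1) the markers relative to direct-pathway markers differed by -0.79 and relative to shared striatal genes by -0.61. None of the log2 fold changes of Drd2, Adora2a, Gpr6 and Penk changed sign under any alternative. The log2 fold changes of Drd2, Adora2a and Gpr6 were -2.02, -2.39 and -1.79 on log2(FPKM + 1). The replicate number as a block gave 1758 calls and the same 4 markers. Same-numbered libraries correlated at 0.139, -0.0263 and 0.140 in their deviations from the group means over 14440 genes. Libraries of different number correlated at -0.171 to 0.0473, below the values for numbers 1 and 3. Control 2 correlated best with Gls1_CamkIIaCre 3, at 0.0359. The labels do not pair the mice, so the numbers were not taken as pairs. What libraries of one number had in common was not tested.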
